A study of Mus musculus with 6 samples.

Results

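The genes described here are those of the interferon response and of nucleic acid sensing, a list of 43 mouse genes drawn up by symbol, of which 40 had a row among the 14986 genes of the expression table. Trex1, Tlr7 and Tlr9 were not analysed here. The cells were long-term haematopoietic stem cells (LT-HSCs), which sustain all blood lineages, sorted from lineage-depleted mouse bone marrow at 1500 cells per sample, and their poly(A) RNA was sequenced after cDNA amplification. There were 6 libraries, 3 labelled wild type and 3 labelled ZCCHC8 KO, with no other treatment, age, strain or sex given. Nothing says whether the replicates came from separate animals. A p-value here sets the difference between groups against the spread of these samples within groups, and that spread may be technical. ZCCHC8 holds together the nuclear exosome targeting complex, which delivers short-lived nuclear RNA to the exosome for decay, and the study asked how its loss changes the transcriptome of these cells. How the allele was made, and in which cells it acts, is not given in the sources used here.

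Type I interferons bind a receptor of IFNAR1 and IFNAR2 chains, whose kinases activate STAT transcription factors, STAT2 among them. STAT2 and IRF9 belong to a complex that binds the interferon-stimulated response element (ISRE) in the promoters of induced genes, while interferon gamma acts through another element, GAS. Foreign or misplaced RNA is detected by RIG-I (Ddx58), MDA5 (Ifih1) and Toll-like receptors. DNA in the cytosol is detected by cGAS, and Z-form nucleic acid by ZBP1. Signals of RIG-I and MDA5 run through the adaptor MAVS, and those of cGAS through STING (Sting1), to the kinases TBK1 and IKKε. These kinases activate IRF3 and IRF7. In haematopoietic stem cells interferon is known to drive exit from dormancy, and stem cells are known to keep some of the induced genes on without a signal.

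No gene of this list passed the test between the libraries labelled KO and wild type. The test was limma on log2(FPKM + 1), where FPKM are fragments scaled by gene length and library depth. It covered 11837 genes whose mean reached 1 FPKM, and an adjusted p (Benjamini-Hochberg) under 0.05 was called. Of the 40 genes 38 were tested, and 0 were called, where 0.228% of all tested genes were. The smallest limma adjusted p of a member was 0.367. At an unadjusted p under 0.05 there were 2 members higher in KO (5.26%), where 4.87% of all genes were, and 1 lower (2.63%), where 4.33% were. With voom on recovered reads 0 members were called. At an unadjusted p under 0.05 voom gave 1 member higher (2.63%, against 4.35% of all genes) and 4 lower (10.5%, against 4.90%). The voom members were Ifi27 on the high side and Irf3, Stat2, Ikbke and Ifi44 on the low side, and did not include Ifit3.

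By value, more members were lower than higher. The log2 change was below 0 for 27 of the 38 (71.1%), where it was for 49.8% of all tested genes, and its median was -0.16, against 0.00 over all genes. The groups did not overlap for 2 members that were higher in KO (5.26%, against 8.24% of all genes) and 5 that were lower (13.2%, against 6.99%). These 7 were Ifi27 and Ifi35 on the high side and Ifit3, Stat2, Irf3, Ikbke and Ifitm2 on the low side. The median size of a member's log2 change, 0.24 in either direction, was the same to 2 decimals as over all genes. The members were chosen with earlier results of these data known, so these shares are no test of the pathways.

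The intervals say how large a change could have been missed. The 95% interval of the log2 change stayed below 1, a doubling on the log2(FPKM + 1) scale, for 36 of the 38 members, the exceptions being Irf1 and Isg15. It reached -1 or lower for 15 members, and it lay between -1 and 1 for 22. The half-width of the interval went from 0.16 for Ifitm2 to 2.06 for Isg15. These are intervals of one gene at a time, without adjustment for the number of genes.

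**Figure D1:**
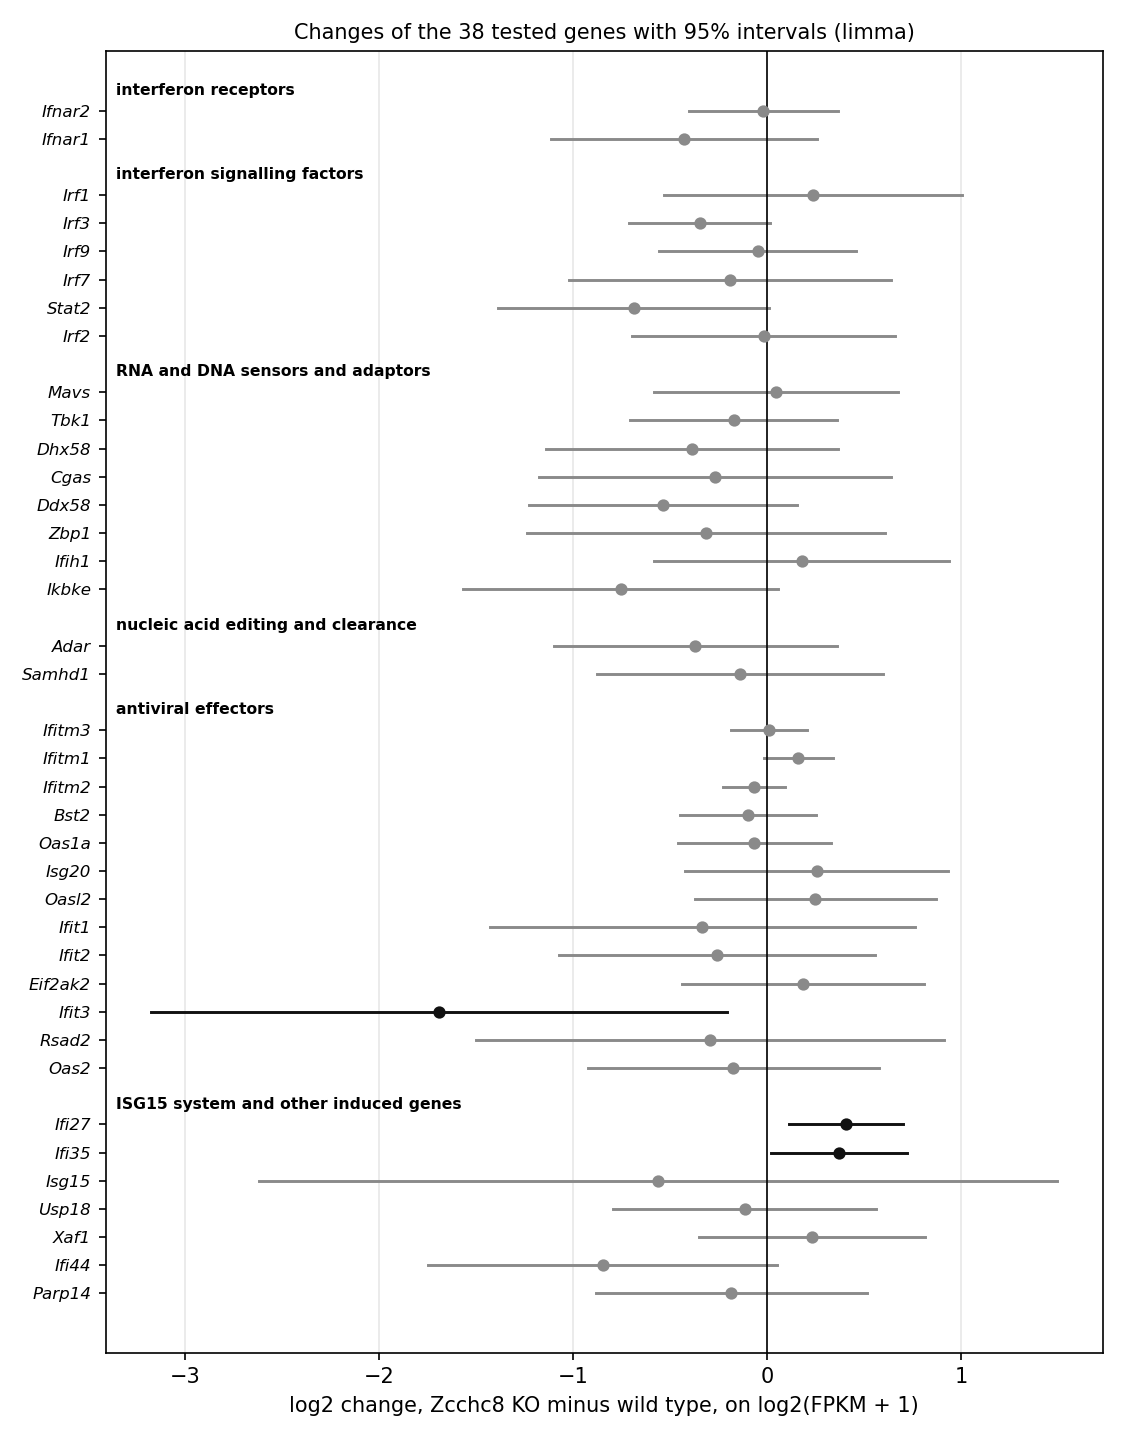
Log2 change (KO minus wild type, on log2(FPKM + 1)) of the 38 tested genes, grouped by role and ordered by level, with 95% intervals from limma; black marks an unadjusted p under 0.05. The 3 black intervals are those of Ifit3, lower in KO, and Ifi27 and Ifi35, higher in KO, and the other 35 intervals span 0.

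The promoter sequences of 4 genes are shown as examples of genes described in the results: Ifit3 and Ifi35, the members with the largest and the smallest change among those at an unadjusted p under 0.05, Isg15, the member with the largest spread, and Socs1, a feedback inhibitor outside the list of members. Ifi27 had no window in the promoter table. Each is the 170 bases up to the RefSeq transcription start (GRCm38.p6), 5′ to 3′ on the gene's strand, with matches to the ISRE core GAAANNGAAA on either strand in capitals.
Ifit3, chr19:34583359-34583528, plus strand: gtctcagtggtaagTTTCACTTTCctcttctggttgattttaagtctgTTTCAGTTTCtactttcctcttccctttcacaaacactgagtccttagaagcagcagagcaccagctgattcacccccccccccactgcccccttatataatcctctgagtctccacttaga
Isg15, chr4:156200819-156200988, minus strand: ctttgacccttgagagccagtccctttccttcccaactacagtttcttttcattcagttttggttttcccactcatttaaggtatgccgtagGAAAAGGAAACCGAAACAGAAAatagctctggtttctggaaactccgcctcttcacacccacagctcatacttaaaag
Socs1, chr16:10785537-10785706, minus strand: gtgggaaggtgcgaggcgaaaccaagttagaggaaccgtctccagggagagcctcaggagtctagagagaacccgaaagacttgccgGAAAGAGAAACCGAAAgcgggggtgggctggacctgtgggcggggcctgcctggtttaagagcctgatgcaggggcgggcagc
Ifi35, chr11:101448242-101448411, plus strand: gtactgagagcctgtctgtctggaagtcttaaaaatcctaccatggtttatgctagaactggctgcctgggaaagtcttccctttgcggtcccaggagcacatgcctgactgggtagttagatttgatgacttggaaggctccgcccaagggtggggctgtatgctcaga

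Ifit3 held 2 separate matches, Isg15 an unbroken run of 3 overlapping ones, Socs1 2 overlapping ones, and Ifi35 none in this stretch. Over RefSeq windows of 300 bases (250 before the start and 50 after it), which matched 33 of the 40 members in 40 windows, the ISRE core was found in 13 windows (32.5%), against 3.44% of all 32851 windows. The shorter GAS pattern TTCNNNGAA, which reads the same on both strands, was also found in 13 member windows (32.5%), against 8.30% of all. The ISRE core was found in 10 of 26 windows of members whose log2 change was below 0 and in 3 of 13 of those above 0. A match is a run of letters and no measure of binding, and the members were listed for their link to interferon, so the share describes the list.

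Levels are compared between genes on the FPKM scale, which is per length. Ifitm3, one of 3 small membrane proteins that block virus entry, was the most abundant member, with 1383, 1109 and 1216 FPKM in the wild-type libraries and 1252, 1155 and 1320 in the KO libraries. Its paralogue Ifitm1 measured 607, 562 and 538 in wild type and 673, 589 and 648 in KO, and Ifitm2 379, 384 and 396 against 372, 358 and 376. The order Ifitm3, Ifitm1, Ifitm2 held in each of the 6 libraries without overlap. The 3 genes are neighbours on chromosome 7 (Ifitm2 140954837 to 140955987, Ifitm1 140967221 to 140969825, Ifitm3 141009586 to 141010770) and alike in sequence, so how reads were divided among them is uncertain.

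The Ifitm genes also gave the tightest comparison. The log2 changes were 0.01 for Ifitm3, 0.16 for Ifitm1 and -0.07 for Ifitm2, with 95% intervals of -0.19 to 0.21, -0.02 to 0.34 and -0.23 to 0.09. All values of Ifitm2 in KO lay below all those in wild type, by a narrow margin, and its exons overlap those of Gm45717 on the same strand. Ifitm3 was lower in KO by value under 3 of 15 other settings, which were quantile scaling and the removal of wild-type library 2 or KO library 3.

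Next in level came Bst2, tetherin, which holds budding virus at the cell surface, at 135 ± 18.6 FPKM over the wild-type and 126 ± 23.4 over the KO libraries (SD, n = 3), and Ifi27, a mitochondrial protein, at 107 ± 15.6 and 141 ± 10.9. Their ranges overlapped in both groups. Between 30 and 41 FPKM stood Oas1a, Ifnar2, Ifi35, Irf1 and Irf3, and each overlapped its neighbours in that order. The median level of the 38 was 10.3 FPKM, against 7.85 over all tested genes. At the low end Tlr3, an endosomal receptor of double-stranded RNA, had 0.0957, 0.0630 and 0.569 FPKM in the wild-type libraries and 0.0224, 0.922 and 0 in the KO libraries, and Mx1, a dynamin-like antiviral GTPase, at 0.351, 0.0144 and 0.824 against 0.0411, 0 and 0. Neither was tested, and these values stand for 91 reads or fewer per library.

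**Figure D2:**
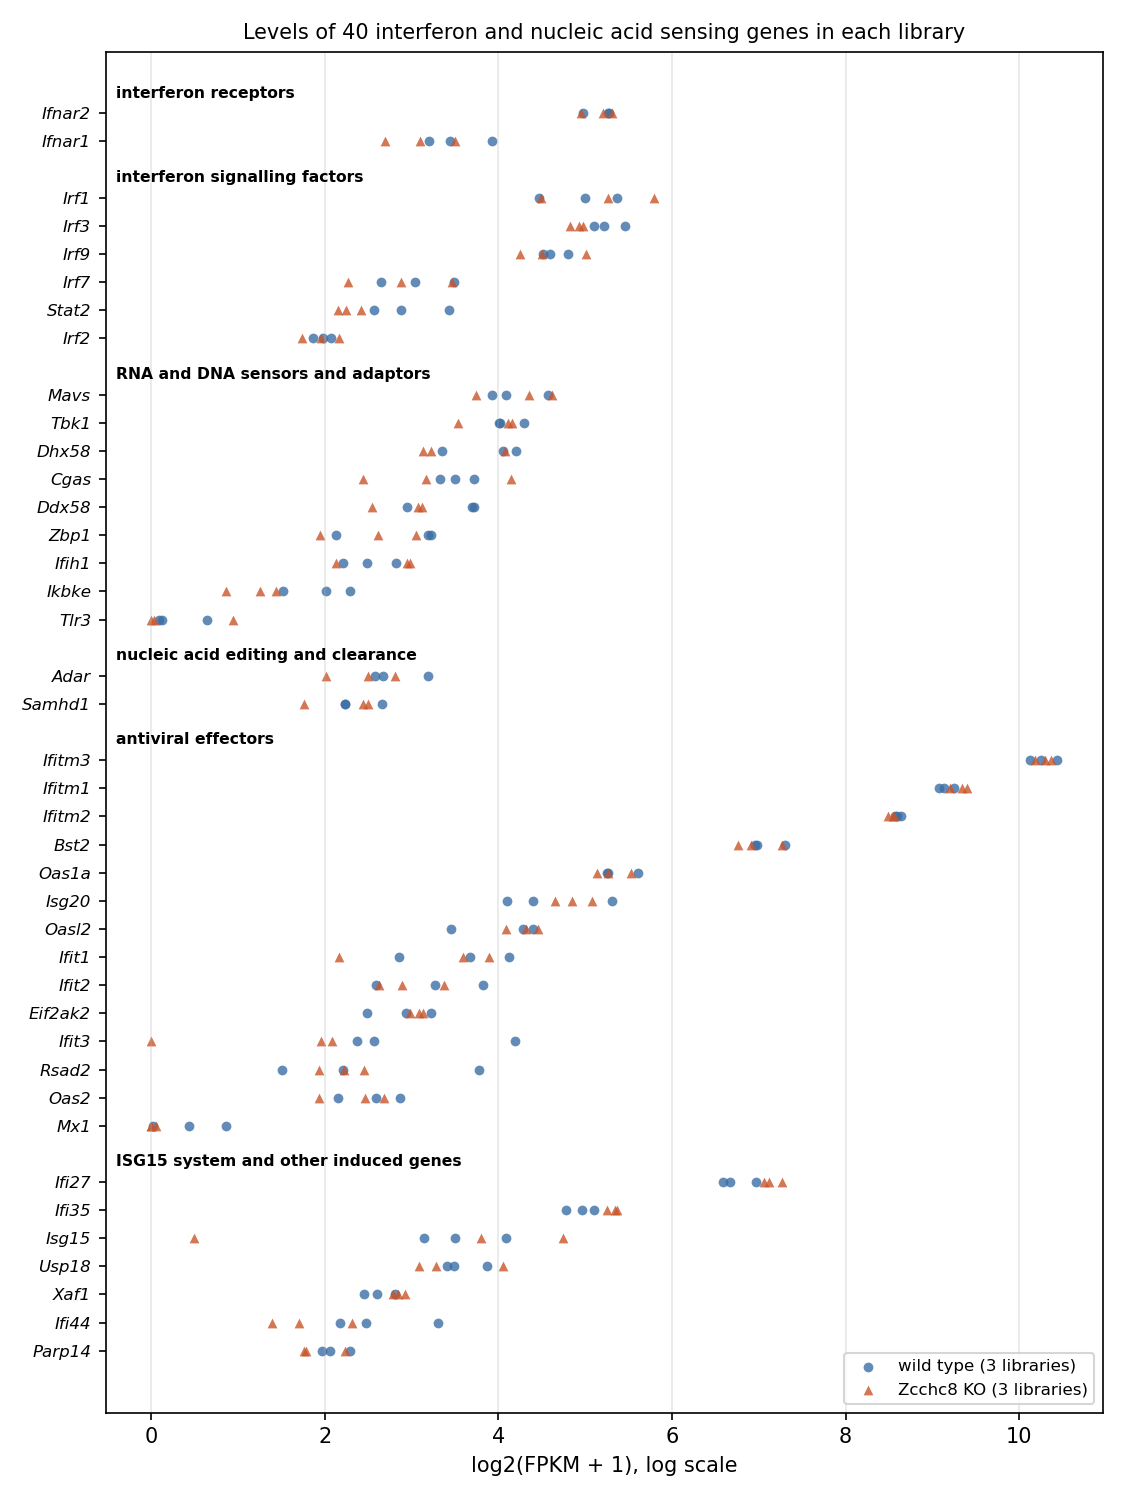
Level of each of the 40 genes in each library on log2(FPKM + 1), grouped by role; circles are the 3 wild-type and triangles the 3 KO libraries. The Ifitm genes and Bst2 sit far to the right, Tlr3 and Mx1 near 0, and the widest rows are those of Isg15 and Ifit3.

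The spread between replicates differed widely among members. The within-group SD on log2(FPKM + 1) had a median of 0.37 over the 38 members, against 0.34 over all tested genes. For the 10 members with a mean of at least 30 FPKM the median was 0.15, for the 10 between 10 and 30 FPKM it was 0.44, and for the 18 below 10 FPKM 0.38. The added 1 FPKM shrinks the SD of low genes most. The 0.38 thus does not show that genes below 10 FPKM repeated better than those between 10 and 30 FPKM. The smallest SD was that of Ifitm2 (0.036), followed by Ifitm1 (0.093), and the largest were those of Isg15 (1.61), Ifit3 (1.09), Rsad2 (0.84) and Ifit1 (0.79).

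The receptor chains were not called. Ifnar2 had 30.4, 37.8 and 37.4 FPKM in the wild-type libraries and 35.8, 29.9 and 38.6 in the KO libraries, and the ranges of both groups overlapped. Ifnar1 measured 9.85, 14.2 and 8.16 against 10.3, 5.45 and 7.53 FPKM, a log2 change of -0.43 with an interval of -1.11 to 0.26.

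Among the signalling factors 5 of 6 were lower in KO by value. Stat2, the transcription factor that joins IRF9 in the ISRE-binding complex, measured 4.94, 6.35 and 9.82 FPKM in the wild-type libraries and 4.35, 3.44 and 3.76 in KO. All KO values were below all wild-type ones, with wild-type library 3 well above the rest. The log2 change was -0.69 ± 0.31 (SE), with an interval of -1.39 to 0.01 and a limma adjusted p of 0.55. Without wild-type library 3 the log2 change was -0.45 (limma adjusted p = 0.77). Over the 15 other settings the adjusted p went from 0.518 to 0.770.

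Irf3, the factor that the RNA and DNA sensors activate, measured 42.9, 33.5 and 36.2 FPKM in the wild-type libraries and 27.4, 29.5 and 30.5 in KO. The groups did not overlap, and the log2 change was -0.35 ± 0.16 (limma adjusted p = 0.557, and 0.485 to 0.744 over 15 other settings). Exons of Irf3 (chromosome 7, 44997648 to 45002848) overlap those of Bcl2l12 on the other strand, and strand use is not given, so reads of the 2 genes cannot be told apart there.

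Irf9, the DNA-binding partner of STAT2, had 23.2, 21.8 and 27.0 FPKM in the wild-type libraries and 18.0, 31.2 and 21.7 in the KO libraries. Irf2, a repressor of interferon genes, measured 2.93 ± 0.276 and 2.90 ± 0.571 FPKM (SD, n = 3). Irf7, the induced factor that amplifies type I interferon production, measured 7.57 ± 2.47 and 6.73 ± 3.12 FPKM. Irf1, which interferon gamma induces, was the only factor higher by value, at 40.3, 31.0 and 21.2 FPKM in the wild-type libraries and 21.4, 54.4 and 37.4 in KO. Its lowest values in both groups were nearly equal, and it was lower by value without wild-type library 3 or KO library 2.

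Of the sensors, adaptors and their kinases 8 were tested, and 6 were lower in KO by value. Ikbke, the inducible kinase IKKε, measured 3.05, 1.88 and 3.88 FPKM in the wild-type libraries and 1.39, 1.71 and 0.82 in KO. The groups were separate by a narrow margin, and the log2 change was -0.76 ± 0.36 (limma adjusted p = 0.565). Its exons overlap those of the predicted genes Gm28913 and Gm28914 on the other strand. Tbk1, the constitutive kinase, was closer, at 16.3 ± 2.03 and 14.6 ± 3.51 FPKM (SD, n = 3).

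The RNA helicases differed in direction by value. Ddx58, RIG-I, measured 12.1, 6.73 and 11.9 FPKM in the wild-type libraries and 4.83, 7.42 and 7.70 in KO, with wild-type library 2 inside the KO range. Dhx58, LGP2, a regulator of the other RNA helicases, measured 9.21, 17.4 and 15.6 against 7.75, 8.36 and 15.9. Ifih1, MDA5, was higher by value, at 4.78 ± 1.24 and 5.66 ± 1.97 FPKM (SD, n = 3). Their adaptor Mavs, on the mitochondrial surface, measured 22.8, 16.0 and 14.2 FPKM against 19.5, 23.6 and 12.4, with ranges that overlapped, and its direction turned in 4 of 15 other settings.

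The DNA sensor Cgas measured 10.3, 12.2 and 9.04 FPKM in the wild-type libraries and 16.7, 4.41 and 7.97 in KO. Its highest and its lowest value were thus both in KO, and the log2 change of -0.27 had an interval of -1.18 to 0.64. Zbp1, a sensor of Z-form nucleic acid, measured 6.64 ± 2.81 and 5.09 ± 2.24 FPKM (SD, n = 3). Adar, the enzyme that edits adenosine in double-stranded RNA, measured 5.40, 8.15 and 4.96 against 4.67, 6.03 and 3.05 FPKM, and Samhd1, which breaks down deoxynucleotides, 4.25 ± 0.932 and 3.83 ± 1.24. Neither was called.

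The antiviral effectors held the largest change by value, that of Ifit3. IFIT proteins bind viral RNA and lie in one cluster on chromosome 19. Ifit3 (34583531 to 34588731) measured 4.16, 17.3 and 4.91 FPKM in the wild-type libraries and 0, 3.23 and 2.89 in KO. The groups did not overlap, and both ends of the difference rest on 1 library each, wild-type library 2 and KO library 1. By recovered reads these libraries held 551 and 0 reads on Ifit3, and the other 4 held 105 to 162. The log2 change was -1.69 ± 0.66 (limma unadjusted p = 0.0298, adjusted p = 0.484). It was -1.12 without wild-type library 2 and -1.02 without KO library 1, with limma unadjusted p of 0.125 and 0.0988. The size also depends on the pseudocount, since 1 library is at 0, and was -0.88 with 5 FPKM added and -4.24 with voom. The unadjusted p stayed under 0.05 in 10 of 15 other settings. The adjusted p over 15 other settings went from 0.332 to 0.743.

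The other genes of the cluster were not alike. Ifit1 measured 16.4, 11.7 and 6.25 FPKM in the wild-type libraries and 3.49, 11.1 and 13.8 in KO, and Ifit2 5.02, 13.1 and 8.62 against 5.19, 9.35 and 6.42. For each of these the groups overlapped. Ifit3b (34607970 to 34613401), a near copy of Ifit3, is no member and was named after its values were seen. It was under the filter, at 1.02, 0.820 and 2.14 FPKM against 0, 0.105 and 0, which stand for 81 reads or fewer per library. Its groups did not overlap. The share of reads given to the 2 copies is uncertain, so its values may not be independent of those of Ifit3. Ifit1bl1 (34592891 to 34601956), also no member and named after its values were seen, measured 4.78, 3.58 and 1.24 FPKM against 0, 3.29 and 0, a log2 change of -1.26 (limma adjusted p = 0.59). Like Ifit3 and Ifit3b, it was listed at 0 in KO library 1.

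Of the oligoadenylate synthetases, which activate an RNA-cutting nuclease, Oas1a measured 40.8 ± 6.09 and 38.9 ± 5.70 FPKM (SD, n = 3) and Oas2 4.91 ± 1.43 and 4.25 ± 1.32, while the related Oasl2 measured 16.1 ± 5.42 and 18.7 ± 2.47. Eif2ak2, the RNA-activated kinase PKR, stood at 6.55 ± 1.87 and 7.40 ± 0.459, and Isg20, an exonuclease, went from 16.2 to 38.6 FPKM in the wild-type libraries and from 24.1 to 32.7 in the KO libraries. Rsad2, viperin, measured 12.7, 3.62 and 1.84 FPKM in the wild-type libraries and 2.83, 4.46 and 3.68 in KO, with wild-type library 1 well above the other 5. None of these had an unadjusted p under 0.05.

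Ifi27 had the smallest p of the list. It lies on chromosome 12 (103434211 to 103440239) and measured 100.5, 95.3 and 124.5 FPKM in the wild-type libraries and 132, 138 and 153 in KO. All KO values were above all wild-type ones, a 1.32-fold difference of means and a log2 change of 0.41 ± 0.13 (limma unadjusted p = 0.0121, adjusted p = 0.367). The unadjusted p stayed under 0.05 in 14 of 15 other settings, all but the fit without a variance trend, and the adjusted p went from 0.315 to 0.642 over them. Ifi27l2a, of the same family and annotated next to it (103442167 to 103443680), measured 9.81, 12.2 and 9.37 FPKM in the wild-type libraries and 22.1, 13.4 and 28.7 in KO, also without overlap (log2 change 0.92 ± 0.28, limma adjusted p = 0.345).

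Ifi35 (chromosome 11, 101448407 to 101458698), a leucine zipper protein that interferon induces, measured 30.2, 33.5 and 26.4 FPKM in the wild-type libraries and 39.7, 37.0 and 40.2 in KO. The groups did not overlap, with a 1.30-fold difference of means and a log2 change of 0.37 ± 0.16 (limma unadjusted p = 0.0415, adjusted p = 0.519). The unadjusted p stayed under 0.05 in 6 of 15 other settings, and the adjusted p went from 0.447 to 0.723 over them. Its exons overlap those of the predicted Gm11626 on the other strand.

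Isg15, the ubiquitin-like protein that is conjugated to others in the response, was the least repeatable member. The wild-type libraries had 16.0, 7.85 and 10.3 FPKM of it and the KO libraries 25.8, 13.0 and 0.410, so that the highest and the lowest library were both KO. KO library 3 held about 6 reads at the annotated exon length, which gives no whole numbers for this gene, and the other libraries 109 to 501. The mean FPKM was higher in KO, 13.1 against 11.4, while the log2 change was -0.56 ± 0.91 (SE). Usp18, the protease that removes ISG15, measured 11.2 ± 2.15 and 10.6 ± 4.39 FPKM (SD, n = 3), and Parp14, an ADP-ribosyltransferase, 3.34 ± 0.512 and 2.84 ± 0.742. Xaf1, a pro-apoptotic induced gene, measured 6.03, 4.48 and 5.09 against 5.92, 6.59 and 6.20 FPKM, and Ifi44 4.55, 3.51 and 8.86 against 2.25, 3.96 and 1.62.

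**Figure D3:**
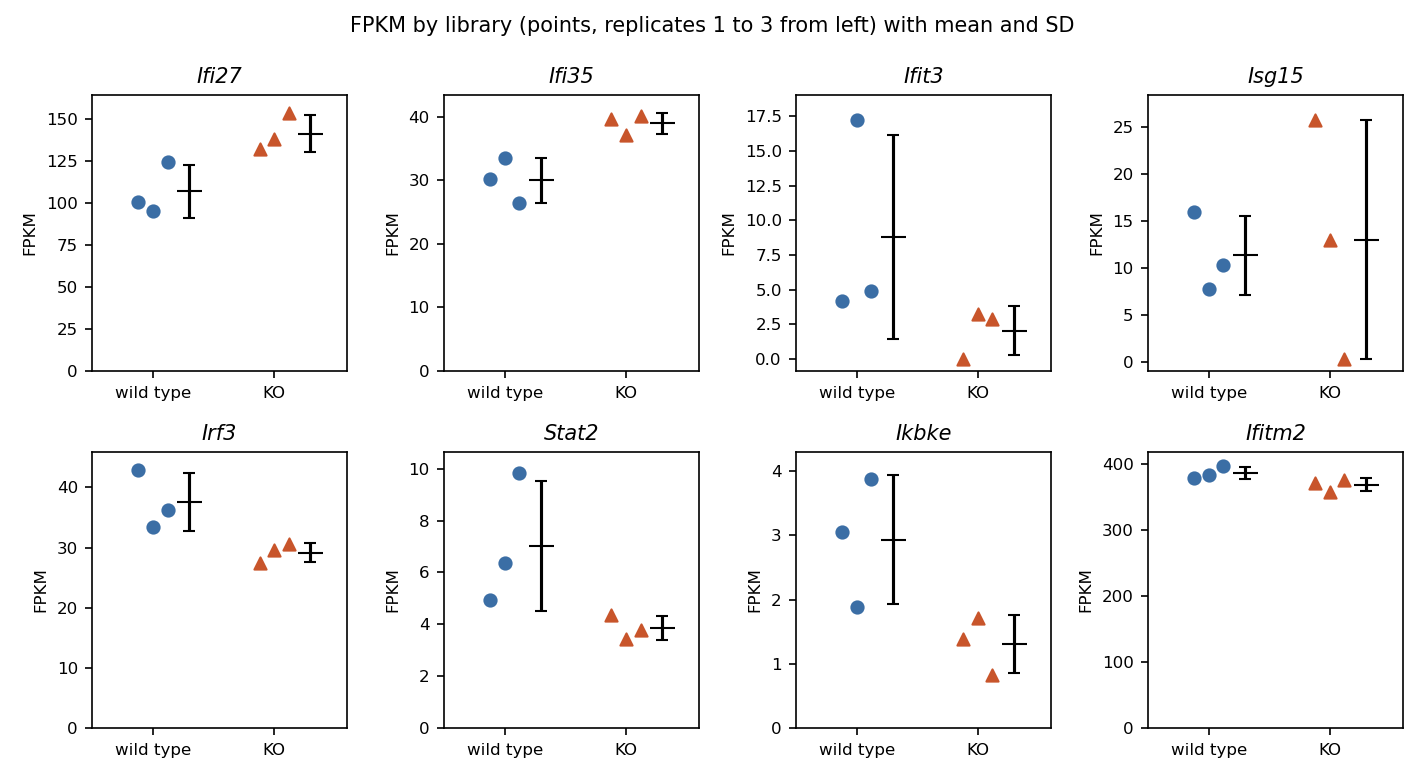
FPKM of 8 members by library, with the mean and SD of each group of 3 at the right of its points. Ifi27 and Ifi35 are higher in all 3 KO libraries, Irf3, Stat2, Ikbke, Ifit3 and Ifitm2 lower in all 3, and Isg15 has both its highest and its lowest value in KO.

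No library was high or low in all members. Wild-type library 3 held the highest value of 10 of the 38 members, wild-type library 1 of 8, wild-type library 2 and KO library 2 of 6 each, KO library 3 of 5 and KO library 1 of 3. The lowest value was in KO library 3 for 10 members, in KO library 1 for 9 and in KO library 2 for 8, against 2, 5 and 4 in wild-type libraries 1, 2 and 3. Over all tested genes each library held 15.7% to 17.5% of the highest and 15.8% to 18.3% of the lowest values. The genes that stood out within one library differed, with Rsad2 high in wild-type library 1, Ifit3 in wild-type library 2, and Stat2 and Ifi44 in wild-type library 3.

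**Figure D4:**
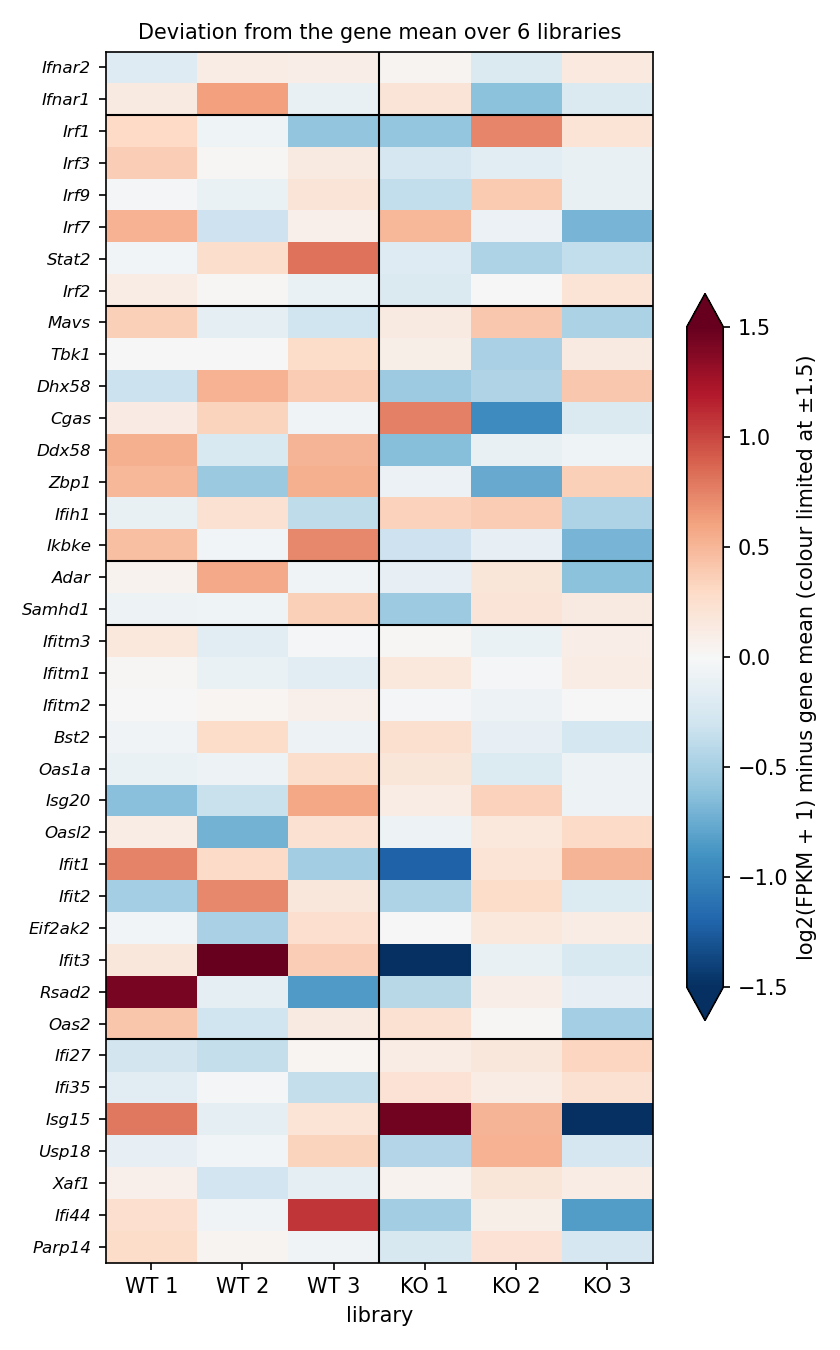
Deviation of log2(FPKM + 1) from the gene's mean over the 6 libraries, for the 38 tested genes in the same order of roles (lines separate the roles and the groups); colours are limited at ±1.5. Red and blue are mixed within each column, and the darkest cells are those of Ifit3, Isg15, Rsad2 and Ifit1.

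The other genes of these pathways were read from a list of 93, of which 79 were tested. None passed, the smallest limma adjusted p being 0.208. At an unadjusted p under 0.05, 11 were higher in KO (13.9%), against 4.87% of all tested genes, and 3 lower (3.80%), against 4.33%. The list was chosen with earlier results of these data known, so its shares and those of its groups are no test of the pathways. The median log2 change was 0.02, with 41 genes higher by value and 38 lower. Of this list 86 genes had a row, tested or not, and 65 of them matched a promoter window, in 79 windows. The ISRE core stood in 28 of these windows (35.4%), a share like that of the members, and the GAS pattern in 11 (13.9%).

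In the receptor and JAK-STAT group 2 of 10 were higher at an unadjusted p under 0.05, against 4.87% of all tested genes, and 0 were lower. Socs1, the feedback inhibitor of the receptor kinases, measured 3.64, 8.04 and 3.40 FPKM in the wild-type libraries and 11.5, 11.6 and 13.4 in KO, without overlap (log2 change 1.21 ± 0.32, limma adjusted p = 0.255). Ptpn2, a phosphatase of JAK and STAT proteins, also did not overlap, at 12.8 ± 2.92 and 19.8 ± 3.20 FPKM (SD, n = 3). The receptor kinases Jak1 and Tyk2 overlapped between groups, Jak1 at 20.2 ± 1.81 and 20.5 ± 1.51 FPKM.

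Among other interferon-stimulated genes 7 of 42 were higher (16.7%, against 4.87% of all tested genes) and 2 lower (4.76%, against 4.33%) at an unadjusted p under 0.05. Of the immunity-related GTPases on the list, which interferon gamma induces, 3 of 6 were among the higher, Tgtp1 (82.6 ± 1.52 and 107 ± 8.22 FPKM, SD, n = 3), Igtp (72.8 ± 12.5 and 96.3 ± 12.4) and Irgm2 (8.08 ± 1.36 and 14.3 ± 4.04). The others, named after their values were seen, had an unadjusted p above 0.05 and overlapping groups. Their log2 changes were 0.05 for Irgm1, 0.24 for Ifi47 and 0.54 for Iigp1. The groups of Igtp overlapped too, while those of Tgtp1 and Irgm2 did not. Igtp and Irgm2 share annotated exons on one strand of chromosome 11, and this family has near-identical copies, so their shares of reads are uncertain. Tor3a measured 19.3, 21.7 and 20.4 FPKM in the wild-type libraries and 28.8, 35.9 and 41.6 in KO, Parp12, an ADP-ribosyltransferase, 4.45, 3.82 and 4.29 against 8.69, 8.80 and 15.3, and the galectin gene Lgals9 123 ± 19.9 and 159 ± 4.51. For both Tor3a and Parp12 the unadjusted p stayed under 0.05 in each of 15 other settings, while the limma adjusted p went from 0.167 to 0.419 and from 0.195 to 0.458.

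Genes of this list that were lower by value at an unadjusted p under 0.05 were the bacterial lipopeptide receptor gene Tlr2 (16.3, 12.4 and 7.88 FPKM against 1.91, 7.52 and 6.52), the chemokine gene Cxcl10 (4.52, 5.51 and 1.69 against 0.864, 1.43 and 1.26) and Trim34a (13.5 ± 3.39 and 8.04 ± 1.82, SD, n = 3). The sensing adaptor Myd88 was higher by value, at 27.7 ± 5.13 and 38.1 ± 3.25, as was Slfn2, a Schlafen family gene, with 22.8, 43.6 and 27.0 FPKM in the wild-type libraries and 60.9, 37.0 and 75.1 in the KO libraries, which overlapped. Ly6a, which encodes the stem cell antigen Sca-1 and is with Lgals9 one of the most abundant genes of the list, measured 129 ± 26.4 and 153 ± 29.3 FPKM. Sting1, the adaptor of cGAS, measured 2.16, 4.61 and 4.73 FPKM in the wild-type libraries and 5.39, 5.75 and 7.17 in KO, without overlap but with a limma adjusted p of 0.62, and is named here after its values were seen.

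**Figure D5:**
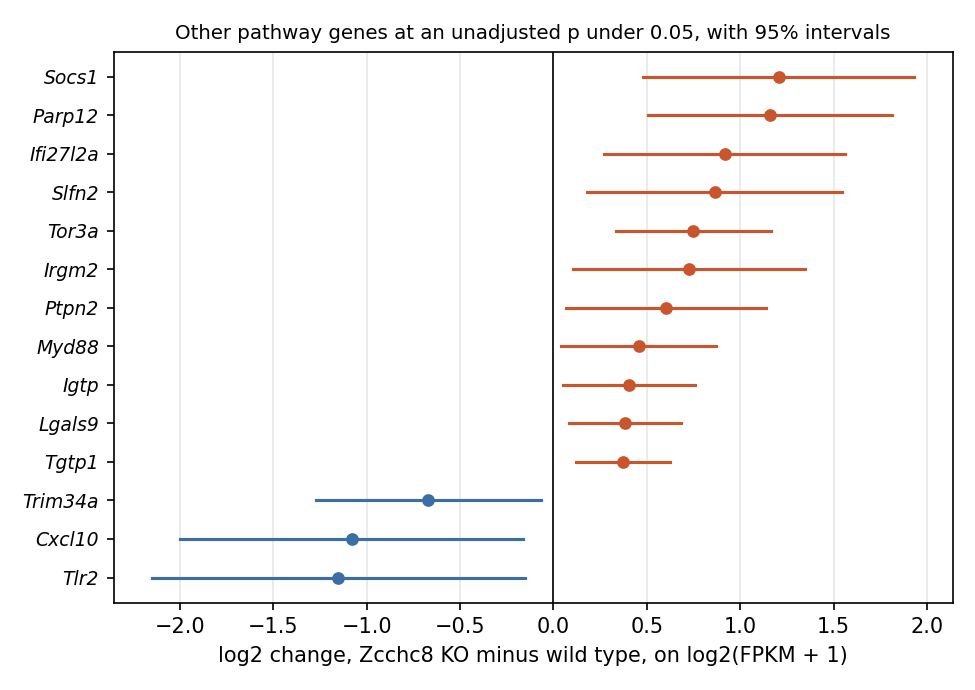
Log2 change (KO minus wild type, on log2(FPKM + 1)) with 95% intervals from limma for the 14 of 79 other pathway genes with an unadjusted p under 0.05. The 11 upper genes, led by Socs1 and Parp12, are higher in KO and the 3 lower ones, Trim34a, Cxcl10 and Tlr2, lower; none passed the adjusted threshold.

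The libraries also differed in markers of other blood cells, in which fewer cells of a type and less RNA per cell cannot be told apart in bulk samples. All 12 LT-HSC markers had a row, and their summed FPKM was 375 to 448 in wild type and 297 to 351 in KO. Of these 12, 0 were called and 5 (41.7%) were lower at an unadjusted p under 0.05. Over all tested genes 0.228% were called, and at that unadjusted p 4.87% were higher and 4.33% lower. These are the shares to set beside the counts of each marker list here. Of 15 monocyte, macrophage and dendritic cell markers 9 were in the table and 2 of 7 tested were called as higher, with sums of 149 to 162 and 279 to 319. Csf1r, Adgre1, Fcgr1, C1qb, Itgax and Ccr2 of that list were not analysed here, and Cx3cr1 and Vcam1 were under the filter. For plasmacytoid dendritic cells, the main interferon producers, 4 of 10 markers were in the table, 0 of them called, with sums of 132 to 171 and 118 to 164, most of it Bst2. The 5 of 9 eosinophil markers in the table summed to at most 3.25 in wild type and to 170 to 211 in KO. Prg2 made most of the KO sums, at 119 to 132 FPKM, and 4 of 5 tested markers were called as higher. Erythroid ones summed to 106 to 142 and 416 to 440, with 4 of 6 tested called as higher. Of 8 T and NK cell markers 4 were in the table, with sums of 189 to 232 and 310 to 323. Of these 4, 0 were called, 2 were higher at an unadjusted p under 0.05 and 1 was lower by value. Neutrophil markers summed to 2725 to 2949 and 3635 to 4051, with S100a9 called as higher and, at an unadjusted p under 0.05, 4 of 9 higher and 2 lower, Mpo and Retnlg. B and plasma cell markers summed to 809 to 926 and 84.3 to 118, a difference made by Igkc alone (795 ± 62.7 FPKM in wild type and at most 1.35 in KO), while 4 of 6 tested were higher at an unadjusted p under 0.05. The part of these cells in the values of Ifi27, Ifi35 and the other genes named here was not tested. Zcchc8 itself had 8.93, 5.24 and 5.16 FPKM in the libraries labelled wild type and 10.4, 5.54 and 5.92 in those labelled KO, so its level summed over the gene does not tell the labels apart, and which part of the gene was altered is not given.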

How the data were processed

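The authors deposited 1 table of FPKM, with a row per gene symbol and a column per library. Per the submitters' processing notes the tools were fastp, Bowtie2 and featureCounts, with build mm10. Not given in the sources used here are versions, strand use and what was done with reads that match several places. Symbols were matched to GENCODE M21 (GRCm38) for 97.9% of genes. FPKM times exon length came out in whole reads, within 0.05, for 98.0% of values under 100 reads, which put 18059318 to 25709668 reads behind the libraries. The reads carry no molecular identifiers, so they overstate independent molecules.

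Groups and replicate numbers came from the sample titles. The groups were compared two-sided on log2(FPKM + 1) by limma 3.58.1 under R 4.3.3 (functions lmFit and eBayes, variance trend on), which understates changes of low genes. The test was tried on simulated data. The members and gene lists were chosen with earlier results of these data known. 1 gene of the wider pathway list is not reported here. Full values are given for members with an unadjusted p under 0.05, those with separate groups and a mean of at least 5 FPKM, the most abundant of each role, and others to account for the list. Replicates differed by more than counting error (chi-square per gene 57.3 to 82.0 on recovered reads). Alternatives changed the pseudocount, filter, scaling, variance model, block and libraries, and voom on recovered reads was added after the data were seen. Python 3.11.15 and matplotlib 3.10.9 made the figures.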

Additional observations from a re-analysis of the deposited data

How the results depend on the processing

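No member passed an adjusted p of 0.05 under any of the 15 other settings run, and the smallest limma adjusted p of a member in any of them was 0.315. The median log2 change of the members stayed below 0, from -0.19 with voom on recovered reads to -0.09 without KO library 3. The 27 calls over all genes went to 8 without a variance trend, 11 with the replicate block and 8 with voom, and to 11 to 13 when libraries were left out, apart from 19 without KO library 1. The 2 members higher at an unadjusted p under 0.05 became 1 under quantile scaling, the replicate block or voom and 0 without a variance trend, and 1 to 2 with a library left out. The 1 lower became 2 without a filter or a variance trend, 3 under quantile scaling and 4 with voom, and 0 to 4 with a library left out. Correlations of deviations were 0.0235, 0.0071 and 0.0037 for equal replicate numbers and -0.0157 to 0.00885 for unequal ones. Not every library correlated best with its own number. The titles state no pairing, and such values cannot tell whether libraries of equal number were handled together. Changes near 0 turned sign. Ifitm3 went from 0.01 to -0.029 under quantile scaling, and to values from -0.065 to 0.095 with a library left out. Ifnar2 went from -0.02 to values from -0.12 to 0.083, Mavs from 0.05 to values from -0.15 to 0.29 and Irf1 from 0.23 to values from -0.071 to 0.58 with a library left out. The causes were not tested. The 95% interval of the log2 change had a half-width of 0.69 at the median member, from 0.16 for Ifitm2 to 2.06 for Isg15. A change smaller than the gene's own half-width has an interval that spans 0.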
